A study of Mus musculus with 6 samples.

Results

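The Notch pathway genes described here are 10 genes taken by symbol from the 54309 genes of the transcript tables: the receptors Notch1, Notch2, Notch3 and Notch4, the ligands Jag1, Jag2, Dll1 and Dll4, and the target genes Hes1 and Hey1. RNA-seq was done on distal left sciatic nerves from C57BL/6 mice, 6 to 8 weeks old, collected 24 h after surgery, with 3 female and 3 male libraries. Each library pooled the nerves of 2 animals, and the whole nerve was used, so every value is an average over all of its cell types. The treatment field calls the surgery axotomy in all 6 libraries, but the treatment protocol given with them is for a sham operation, with the nerve exposed and left uncut. Which of these the nerves received could not be settled from the labels. The series set females against males after this surgery to look for sexual dimorphism. Both sexes carry the same labels for surgery, and no unoperated or contralateral nerve enters the comparison.

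Notch receptors are membrane proteins that bind Jagged or Delta-like ligands on neighbouring cells. Ligand binding leads to cleavage by ADAM10 and then by gamma-secretase, and the released intracellular domain joins the DNA-binding protein RBPJ to switch on target genes, among them the repressors Hes1 and Hey1. In peripheral nerve the pathway is known for promoting the Schwann cell lineage and for opposing myelination, and in blood vessels Dll4 and Notch4 are known from endothelial cells and Notch3 from mural cells.

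Hes1 was lower in every female library than in every male library, at 0.718 times the male level. Dll4 and Notch4 were higher in females 1 and 2 than in every male library, while female 3 lay among the males. For all 9 members other than Hes1 the female and male ranges overlapped. Of all genes tested, 21.2% had ranges that did not overlap, 11.5% with females lower and 9.65% with females higher, so 1 of 10 members is no more than the background. None of the 10 genes passed the threshold, a Benjamini-Hochberg adjusted p under 0.05 over all 19129 genes tested, in edgeR's quasi-likelihood test of female against male. Of all genes tested, 0.11% passed, 0.0157% higher and 0.0941% lower in females. At an unadjusted p under 0.05 the same test had 1 member, Hes1, lower in females, against 14.6% of all genes (5.82% higher and 8.74% lower). DESeq2 called 1 member, again Hes1, where it called 4.55% of all genes and 3.34% as lower in females, and limma-voom called 0 members and 0.136% of all genes. On log2(TPM + 1) and on log2(TPM + 0.1) limma called 0 members, against 0.0523% and 0.0732% of all genes. The members' median log2 fold change, female minus male, was 0.08, against 0.016 for all genes tested. Of these 19129 genes, 10250 lay above 0 and 8879 below.

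Libraries held 55272138 to 77610593 estimated reads, and the lowest read count of any member in any library was 251, for Dll1 in female 3. The nerve marker Sox10, a Schwann cell lineage factor chosen after its values were seen, was at 88.7 to 108 TPM in females and at 111 to 144 TPM in males. Some libraries stood apart. The 11 skeletal muscle markers summed to 1281 TPM in female 2 and 655 TPM in male 1, against 17.99 and 27.2 TPM in females 1 and 3 and 12.0 and 9.72 TPM in males 2 and 3. The 4 keratinocyte markers summed to 24.4 TPM in female 1 and to between 3.84 and 5.74 TPM in the other libraries. The keratin genes Krt5 and Krt14 had 750 and 1313 reads in female 1 and at most 3 reads in any other library. They were chosen after their values were seen. The other listed keratins were not raised in female 1. Krt1 had 0 reads there, and Krt10 was at 5.01 TPM, against 3.78 to 5.70 TPM in the other libraries. The 7 adipocyte markers were highest in female 2, at 1174 TPM, and lay between 348 and 736 TPM elsewhere. No listed marker was at 0 in all 6 libraries.

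Promoter sequences are shown for Dll4 and Notch4 because these 2 genes varied together across the libraries, as described below. Each is the 250 bases before the annotated start in RefSeq, build GRCm38.p6, plus strand, written 5′ to 3′. Dll4 is at chr2:119325534-119325783 and Notch4 at chr17:34564045-34564294. Capitals mark matches, on either strand, to any of 3 motifs: the core letters bound by RBPJ (TGGGAA), sites bound by HES and HEY proteins (CACGTG or CACGCG), and a core bound by ETS factors (AGGAAG).
Dll4: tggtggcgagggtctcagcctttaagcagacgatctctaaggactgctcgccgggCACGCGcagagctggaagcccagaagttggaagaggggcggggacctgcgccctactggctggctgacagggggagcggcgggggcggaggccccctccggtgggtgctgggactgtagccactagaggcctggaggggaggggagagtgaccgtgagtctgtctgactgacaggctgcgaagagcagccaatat
Notch4: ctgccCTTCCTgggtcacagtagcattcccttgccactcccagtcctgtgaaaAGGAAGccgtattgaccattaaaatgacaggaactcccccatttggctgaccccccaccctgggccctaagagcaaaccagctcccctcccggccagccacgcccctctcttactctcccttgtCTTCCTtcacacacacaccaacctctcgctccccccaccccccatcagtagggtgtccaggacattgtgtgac
The Dll4 window held 1 HES and HEY type match, 195 bases before the start, and the Notch4 window held 3 matches to the ETS letters, at 245, 197 and 73 bases before it. No base lay in 2 matches. The RBPJ letters were in neither window, nor in the windows of the other members found in the promoter table. That table held 8 of the 10 members. The members it lacked were the target genes Hes1 and Hey1, so their promoters were not searched. Over all 32851 promoter windows of this length, 21.6% held the RBPJ letters, 12.9% a HES and HEY type site and 29.5% the ETS letters, so the matches describe letters and not binding.

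Levels below are TPM, which is scaled by transcript length and can be compared between genes, summed over all transcripts of a gene. Notch2 was the most abundant member at 30.2 ± 3.55 TPM over all libraries (SD, n = 6), followed by Hes1 at 24.1 ± 4.66 TPM and Notch1 at 19.5 ± 2.87 TPM. These 3 neighbours in the order were not cleanly separated. Notch2 exceeded Hes1 in 5 of 6 libraries, the exception being male 1, and Hes1 exceeded Notch1 in 5 of 6, the exception being female 2. The next steps were clear. Notch1 exceeded Jag1 (12.2 ± 1.56 TPM) in all 6 libraries, and Jag1 exceeded Jag2 (6.54 ± 1.68 TPM) in all 6, with no overlap of their ranges and ratios of 1.60 and 1.86. Below Jag2 the ranges of neighbours overlapped throughout: Notch3 was at 5.51 ± 0.766 TPM, Hey1 at 4.59 ± 0.874, Notch4 at 4.02 ± 1.35, Dll1 at 2.66 ± 0.737 and Dll4 at 2.62 ± 1.26 TPM.

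**Figure D1:**
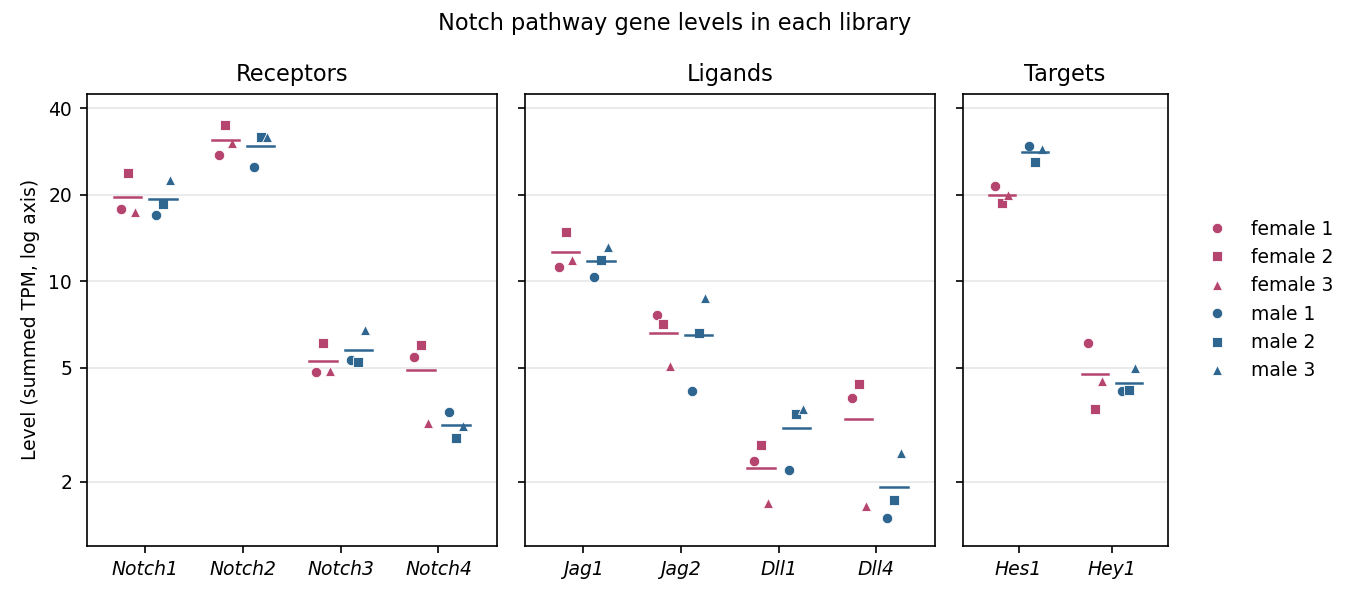
Level of each Notch pathway gene in each library, as TPM summed over transcripts on a log axis, with females left of males for each gene and a bar at the mean of 3 libraries. Hes1 is the member whose female and male points do not overlap, at 18.7 to 21.4 TPM in females and 26.0 to 29.5 TPM in males.

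Among the receptors, Notch2 had 27.4, 35.0 and 30.4 TPM in females 1 to 3 and 25.0, 31.7 and 31.8 TPM in males 1 to 3. Notch1, a receptor studied in the Schwann cell lineage, had 17.9, 23.7 and 17.4 TPM in females and 16.9, 18.5 and 22.5 TPM in males. The sexes overlapped for both. Their log2 fold changes of 0.09 (95% interval -0.16 to 0.34) and -0.05 (-0.22 to 0.12) had adjusted p of 0.740 and 0.804 by edgeR. The signs of both turned in other fits: Notch2 was at -0.011 without female 2, and Notch1 at 0.023 on log2(TPM + 1). As folds of female over male, the intervals ran from 0.897 to 1.27 for Notch2 and from 0.858 to 1.09 for Notch1.

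Notch3, the receptor best known from mural cells, had 4.83, 6.07 and 4.86 TPM in females and 5.32, 5.22 and 6.78 TPM in males. Its log2 fold change was 0.05 (95% interval -0.25 to 0.36), with an edgeR adjusted p of 0.892. The direction was not stable: the value was -0.11 on log2(TPM + 1), -0.13 on log2(TPM + 0.1) and -0.14 with the effective-length offset, and -0.11 without female 2. The 12 mural cell markers, of which Tagln was the most abundant, summed to 441 to 501 TPM in females and 481 to 523 TPM in males, and 7 of these 12 lay above 0 in log2 fold change (median 0.02). Females and males overlapped both for Notch3 and for the mural sum. The overlap of the mural sums rested on female 2, at 501 TPM. Females 1 and 3, at 456 and 441 TPM, were below every male library. Des, a marker on this list, was at 51.7 TPM in female 2 and 12.5 TPM in male 1, the libraries with muscle transcripts. In the other libraries Des was at 4.58 to 7.08 TPM.

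Notch4, a receptor of endothelial cells, had 5.45, 6.01 and 3.22 TPM in females and 3.50, 2.84 and 3.13 TPM in males. In CPM scaled by edgeR's TMM method, the unit of the tests, it stood at 19.1, 22.0 and 9.85 in females and 9.64, 12.1 and 13.6 in males. Females 1 and 2 were above every male library, and female 3 lay within the male range. The log2 fold change was 0.53 (SE 0.30, 95% interval -0.19 to 1.25, edgeR adjusted p 0.480). It was 0.29 without female 2, 0.81 without female 3 (edgeR adjusted p 0.0702) and 0.18 without both libraries that held muscle transcripts, female 2 and male 1.

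Of the ligands, Jag1 had 11.2, 14.8 and 11.8 TPM in females and 10.4, 11.8 and 13.1 TPM in males, with a log2 fold change of 0.15 (95% interval -0.08 to 0.37, edgeR adjusted p 0.540). It was 0.035 without female 2 and 0.0067 without female 2 and male 1. Jag2 had 7.65, 7.07 and 5.08 TPM in females and 4.16, 6.58 and 8.71 TPM in males, with a log2 fold change of 0.10 (95% interval -0.41 to 0.62, edgeR adjusted p 0.871), and it was -0.093 without male 1. In summed TPM the males spanned the whole female range for Jag2, with male 1 the lowest and male 3 the highest library. In TMM-scaled CPM female 1 was the highest, at 15.9 against 15.7 in male 3. On protein-coding transcripts alone female 2 was the highest, at 5.37 TPM against 5.35 TPM in male 3.

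Dll1, a Delta-type ligand, had 2.37, 2.68 and 1.69 TPM in females and 2.21, 3.45 and 3.58 TPM in males. Female 3 was the lowest library and males 2 and 3 the highest, and male 1 lay inside the female range. The log2 fold change was -0.47 (SE 0.21, 95% interval -0.95 to 0.01, edgeR adjusted p 0.355), and it was -0.81 without female 2 and male 1.

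Dll4, the Delta-type ligand of endothelial cells, had the widest spread of all members, a coefficient of variation of 47.9% over the 6 libraries, against 11.8% for Notch2, the lowest. It had 741, 775 and 322 reads in females 1 to 3 and 300, 262 and 335 reads in males 1 to 3. In TMM-scaled CPM these were 10.1, 11.3 and 4.21 in females and 3.99, 4.34 and 6.06 in males. As for Notch4, females 1 and 2 were above every male library and female 3 lay among the males. The log2 fold change of 0.83 (SE 0.37, 95% interval -0.07 to 1.73) had an adjusted p of 0.378 by edgeR. It was 1.15 with an edgeR adjusted p of 0.0504 without female 3, 0.57 without female 2, 0.72 without male 1, 1.03 without male 3, and 0.46 without both female 2 and male 1.

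**Figure D2:**
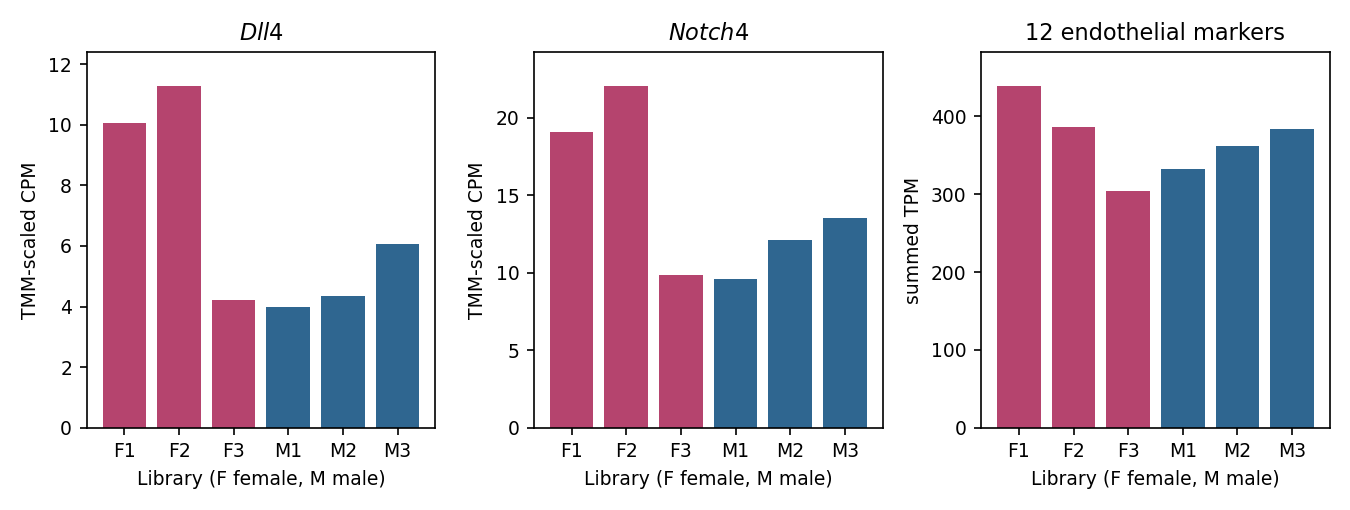
Dll4 and Notch4 in TMM-scaled CPM and the summed TPM of 12 endothelial markers in each of 3 female and 3 male libraries, with axes from 0. Dll4 is at 10.1 and 11.3 CPM in females 1 and 2 and at 3.99 to 6.06 CPM in the other 4 libraries, while the endothelial sum runs from 304 TPM in female 3 to 438 TPM in female 1.

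Dll4 and Notch4 varied together across the libraries. Among 14753 genes with a mean of at least 1 CPM, the gene whose pattern over the 6 libraries came closest to that of Dll4 was Notch4. The measure was the root-mean-square difference of log2 CPM after each gene's mean was subtracted, and it was 0.18, against SDs of 0.66 for Dll4 and 0.49 for Notch4 themselves. The second closest gene to Dll4 was Cd72, a B cell and macrophage receptor gene, at 0.20. Closest to Notch4 were Acp5, which encodes tartrate-resistant acid phosphatase, at 0.11, and Hmcn1, a basement membrane protein gene, at 0.12. With 6 libraries and this many genes some close pattern is always found, so these distances are a description.

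The 12 endothelial markers, of which Egfl7 was the most abundant, summed to 304 to 438 TPM in females and 333 to 384 TPM in males. The log2 fold change of 10 of these 12 was above 0, against 10250 of all 19129 genes tested, and the list's median was 0.06. Vwf, named after its values were seen, was lower in females without overlap. It was at 11.2 to 13.7 TPM in females and 15.9 to 18.9 TPM in males. The order of the endothelial sums among females, 438, 386 and 304 TPM in females 1 to 3, put female 3 lowest. This was as for Dll4 and Notch4, but over a smaller range. Females 1 and 2 stood in the other order, since both genes were higher in female 2. Among males the sums rose from male 1 to male 3, at 333, 362 and 384 TPM, as did Dll4 and Notch4 in TMM-scaled CPM. In summed TPM Notch4 was instead highest in male 1 among the males. Of 7 arterial endothelial markers, 5 were above 0 with a median of 0.40. In TMM-scaled CPM 1 of these 7 did not overlap, higher in females, a direction that held 9.65% of all genes tested. The 7 summed to 103 to 123 TPM in females and 110 to 120 TPM in males. Sema3g made up most of this sum, at 70.9 to 81.6 TPM in females and 77.6 to 92.9 TPM in males, so the sum mainly follows this gene. The 5 lymphatic endothelial markers, led by Pdpn, summed to 308 to 317 TPM in females and 294 to 386 TPM in males. Fewer cells of a type and less RNA per cell cannot be told apart in these whole-nerve samples, and the part of the endothelial share in the Dll4 and Notch4 values was not tested.

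**Figure D3:**
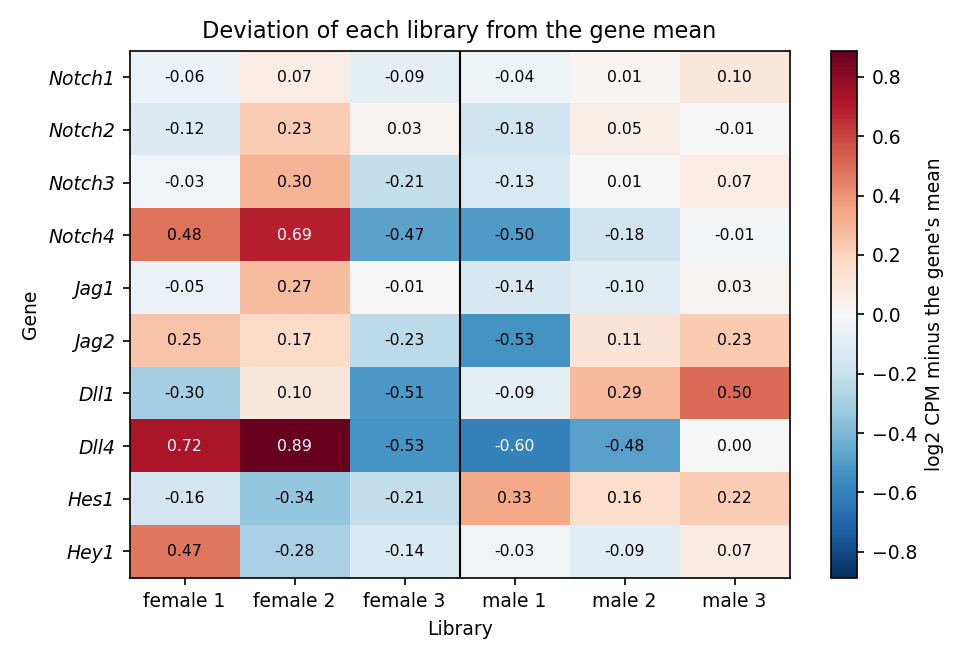
Deviation of each library from the gene's mean over 6 libraries, in log2 CPM, for the 10 members, with females left of males. Dll4 and Notch4 are highest in females 1 and 2 (0.72 and 0.89 for Dll4, 0.48 and 0.69 for Notch4), and Hes1 is negative in all 3 females and positive in all 3 males.

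Hes1, a repressor of the basic helix-loop-helix family and a direct Notch target, had 21.4, 18.7 and 19.99 TPM in females and 29.5, 26.0 and 28.8 TPM in males. In TMM-scaled CPM it was at 13.4, 11.8 and 13.0 in females and 18.9, 16.7 and 17.5 in males. The groups did not overlap, in the direction of lower in females, in which 11.5% of all genes tested were also separated. Hes1 averaged 12.7 ± 0.815 CPM in females and 17.7 ± 1.098 CPM in males (SD, n = 3 each). Its log2 fold change was -0.48 (SE 0.09, 95% interval -0.69 to -0.27). Its edgeR adjusted p was 0.127, short of the threshold, and its DESeq2 adjusted p was 0.000735. Over 18 alternatives the value stayed between -0.52 and -0.38, and the adjusted p ran from 0.000735 by DESeq2 to 0.312 by edgeR without female 1. DESeq2 was the single alternative that called it. Without female 2 and male 1 it was -0.38, with an edgeR adjusted p of 0.265.

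Several marker lists separated the sexes in the same direction as Hes1. The 11 myelin markers summed to 11214 to 17390 TPM in females and 23071 to 29215 TPM in males, and 11 of 11 lay below 0 in log2 fold change (median -0.78). The 8 Schwann cell markers summed to 788 to 1087 TPM in females and 1160 to 1408 TPM in males, with 8 of 8 below 0 and a median of -0.38. None of these markers passed over all genes by edgeR. The 8 fibroblast markers, led by Dcn, summed to 4316 to 5017 TPM in females and 5713 to 7795 TPM in males, with 7 of 8 below 0 and a median of -0.54. The 6 perineurial markers, led by Crabp2, summed to 269 to 339 TPM in females and 373 to 418 TPM in males, with 6 of 6 below 0 and a median of -0.40. The 6 T cell markers, led by Trac, summed to 7.88 to 10.6 TPM in females and 12.6 to 17.9 TPM in males, with 6 of 6 below 0 and a median of -0.96. The part of these cell types in the Hes1 difference was not tested. Both myeloid lists leaned the other way, with sums that overlapped between the sexes. The 8 macrophage markers, led by Lyz2, summed to 3449 to 4364 TPM in females and 2754 to 4162 TPM in males, with 7 of 8 above 0 and a median of 0.21. The 8 neutrophil markers, led by S100a9, summed to 2896 to 5894 TPM in females and 2106 to 4418 TPM in males, with 7 of 8 above 0 and a median of 0.51. Of the 8 neutrophil markers, 3 did not overlap between the sexes, all higher in females, and neither did 1 of 8 macrophage markers, also higher. That direction held 9.65% of all genes tested, and the other held 11.5%. Lower in females without overlap were 10 of 11 myelin, 5 of 8 Schwann cell and 6 of 8 fibroblast markers. So were 3 of 6 perineurial and 5 of 6 T cell markers.

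Hey1, a related repressor and Notch target, had 6.11, 3.59 and 4.50 TPM in females and 4.15, 4.18 and 4.97 TPM in males. Female 1 was the highest library and female 2 the lowest, so the sexes overlapped. The log2 fold change was 0.07 (95% interval -0.39 to 0.53, edgeR adjusted p 0.909), and it was -0.20 without female 1, the library with the Krt5 and Krt14 reads. Whether the Hes1 and Hey1 differences differ from each other was not tested.

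**Figure D4:**
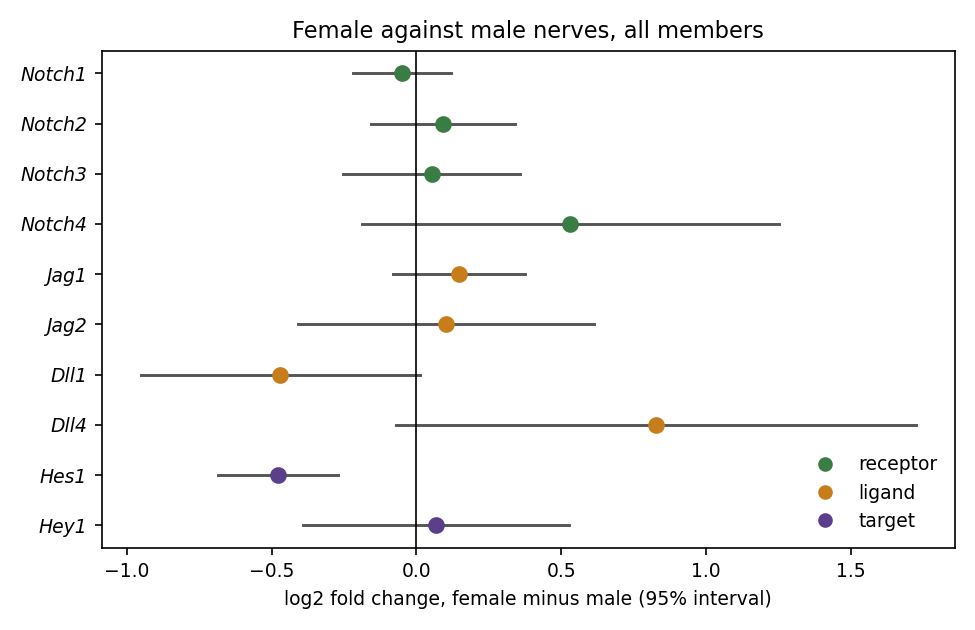
Log2 fold change of each member, female minus male, from edgeR's fit to 3 female and 3 male libraries, with its 95% interval. The interval lies wholly below 0 for Hes1 (-0.69 to -0.27), crosses 0 for the other 9 members, and is widest for Dll4 (-0.07 to 1.73).

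The patterns nearest to the other members were as follows. Dll1 was closest to H2-Eb1 and Cd74, both part of the MHC class II machinery that presents antigen, at root-mean-square differences of 0.047 and 0.057 log2 CPM, against an SD of 0.38 for Dll1. Hes1 was closest to Ccn4, a matricellular protein gene, and Septin5, a septin gene, at 0.041 and 0.056, against an SD of 0.27. Jag1 was closest to Tubb2b, a beta-tubulin gene, and to Cep350, a centrosomal protein gene, at 0.016 and 0.023. Jag2 was closest to Rapgef5 and Lrmp at 0.060 and 0.063, and Hey1 to Hoxb9, a homeobox gene, at 0.074 and to Cyyr1 at 0.076. Notch1 was closest to Phf8 and Lmf2, Notch2 to Dock10 and Nadsyn1, and Notch3 to Il3ra and Trim65, all at 0.016 to 0.031, where the SDs of these 3 members were 0.07, 0.14 and 0.18.

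Summed over receptors, the nerves held 60.8 ± 8.73 TPM in females and 57.8 ± 6.74 TPM in males (SD, n = 3 each), and summed over ligands 24.8 ± 4.36 TPM in females and 23.3 ± 4.86 TPM in males. Receptor RNA was thus 2.47 ± 0.278 times ligand RNA in females and 2.52 ± 0.247 times in males. Hes1 and Hey1 together were at 24.8 ± 2.64 TPM in females and 32.5 ± 2.01 TPM in males. Notch2 took 51.1 ± 2.58% of receptor TPM over all libraries (SD, n = 6), Notch1 32.8 ± 1.39%, Notch3 9.33 ± 0.930% and Notch4 6.78 ± 2.02%. Jag1 took 51.4 ± 5.42% of ligand TPM, Jag2 26.96 ± 3.39%, Dll1 11.1 ± 2.47% and Dll4 10.6 ± 3.77%. Notch2 among receptors and Jag1 among ligands were in first place in every library.

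Of the 8 shares, 2 did not overlap between the sexes, where 21.2% of all genes tested did not overlap in level. The shares within a role add up to the whole, so they are not independent of each other. Dll1 took 9.41%, 9.26% and 8.33% of ligand TPM in females and 12.1%, 14.6% and 12.8% in males. The difference of -4.18 percentage points had an exact permutation p of 0.1, two-sided, the smallest that 3 against 3 allows, and an adjusted p of 0.4 over the 8 shares. Dll1 stayed separated when only protein-coding transcripts were counted, at 7.37% in females and 11.7% in males. Notch3 took 8.70%, 8.57% and 8.70% of receptor TPM in females and 10.5%, 8.95% and 10.6% in males, with the same exact permutation p of 0.1 and adjusted p of 0.4. With protein-coding transcripts only its shares were 9.15% and 9.53%, and they overlapped. Dll4 took 15.6%, 15.2% and 8.13% in females and 8.23%, 7.32% and 9.06% in males, and the groups overlapped through female 3.

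How much of a gene's summed TPM came from its coding transcripts differed widely between members. For Notch2 and Dll4, at least 99.0% of TPM lay on protein-coding transcripts in every library, and for Dll4 it was 100% throughout. For Notch4 the coding share of TPM ran from 54.1% to 94.4%, while the coding share of its reads was 93.8% to 98.9%. Short noncoding records thus carried few reads and much TPM. In female 2, 4.905 reads assigned to Notch1-208, a record of 157 nt, gave 4.83 TPM, or 20.4% of the gene's TPM, whereas the full-length Notch1-201 of 9488 nt had 8037 reads and 16.8 TPM. That library was the highest for summed Notch1 and not for Notch1-201, which was highest in male 3, at 18.4 TPM.

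On coding transcripts alone the order kept its first 4 places, Notch2, Hes1, Notch1 and Jag1, and exchanged 2 pairs below them. Notch3 (5.10 ± 0.762 TPM) then stood above Jag2 (4.65 ± 0.98), and Dll4 (2.62 ± 1.26) above Dll1 (1.904 ± 0.547 TPM; SD, n = 6 each). Coding Hes1 was at 17.1 ± 1.14 TPM in females and 23.6 ± 1.30 TPM in males, again without overlap. Of its 3 noncoding records, Hes1-204 did not overlap either, with 1.52, 1.65 and 1.36 TPM in females and 2.65, 2.78 and 2.67 TPM in males, while Hes1-202 and Hes1-203 overlapped between the sexes.

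**Figure D5:**
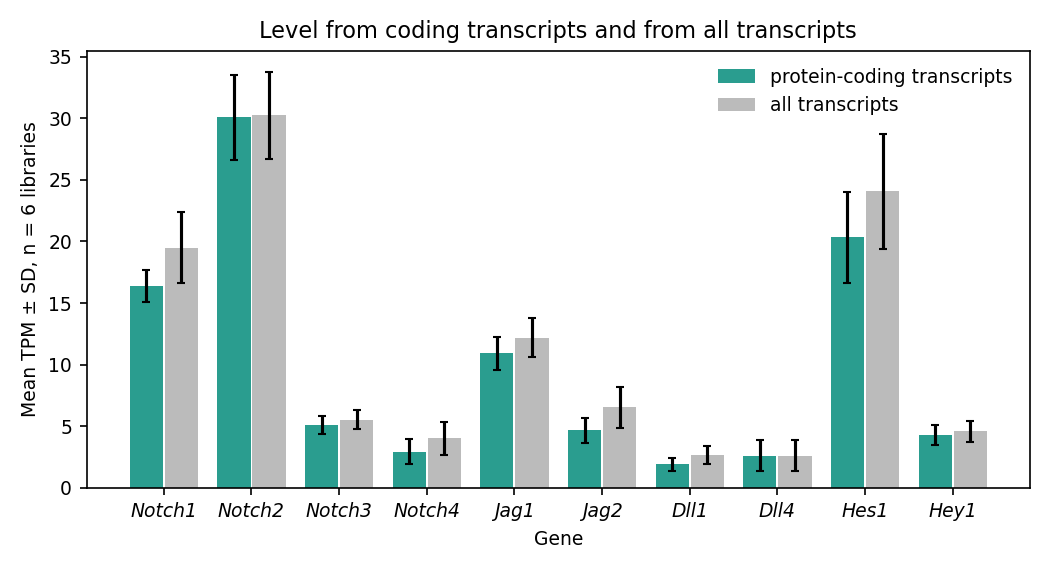
Mean TPM ± SD over 6 libraries for each member, from protein-coding transcripts and from all transcripts, with the axis from 0. The bars are equal for Dll4 (2.62 TPM), and for Jag2 they stand at 4.65 TPM from coding transcripts and 6.54 TPM from all.

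The rest of the pathway was followed in 48 further genes, of which 43 had enough reads to be tested. None passed over all genes by edgeR, 3 had an unadjusted p under 0.05, all lower in females, and 7 did not overlap between the sexes (2 higher and 5 lower in females). Among all genes tested, 14.6% had such a p (8.74% lower in females) and 21.2% did not overlap. Limma-voom called none of the 43, and DESeq2 called Adam10 alone, where it called 4.55% of all genes (3.34% lower). Adam10, the protease that makes the ligand-dependent cut in Notch, stood at 268, 247 and 292 CPM in females and 350, 348 and 320 CPM in males. The groups did not overlap, and the log2 fold change was -0.34 (SE 0.09, 95% interval -0.54 to -0.13, edgeR adjusted p 0.171). The other 4 genes of smallest p were Mib2, a ubiquitin ligase acting on ligands (-0.23), Numbl, a relative of the Notch antagonist Numb (-0.17), Dtx3, a Deltex family member (-0.16), and Maml3, a Mastermind coactivator (0.16), with edgeR adjusted p of 0.309 to 0.423.

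The most abundant gene of each role is given next. Psenen, a subunit of gamma-secretase, was the most abundant cleavage gene at 139 ± 4.38 TPM in females and 147 ± 5.81 TPM in males (SD, n = 3 each). Rbpj led the nuclear complex at 97.0 ± 13.9 TPM in females and 84.0 ± 18.8 TPM in males. Lfng, a glycosyltransferase that modifies Notch receptors, was at 46.6 ± 3.50 TPM in females and 44.96 ± 7.94 TPM in males. Mib1, a ubiquitin ligase needed for ligand endocytosis, was at 36.9 ± 3.94 TPM in females and 38.8 ± 1.15 TPM in males, and Dtx3 led the turnover genes at 45.9 ± 0.106 TPM in females and 51.6 ± 4.59 TPM in males. Dlk1, a noncanonical ligand, led the other ligands at 2.81 ± 0.333 TPM in females and 2.38 ± 0.242 TPM in males. None of these passed, with edgeR adjusted p of 0.379 to 0.907.

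Among 8 further genes of the Hes and Hey families and Nrarp, listed together as other targets, Hes6 was the most abundant. It was at 10.6 ± 1.38 TPM in females and 9.59 ± 0.233 TPM in males, with a log2 fold change of 0.14 (edgeR adjusted p 0.636). Whether Hes6 responds to Notch in these nerves was not tested. Hes2, Hes3, Hes5, Dll3 and Dlk2 were not tested, as they had 9, 5, 2, 12 and 47 reads over all 6 libraries. Hes5, a Notch target of neural progenitors, had 1 read in female 2, 1 read in male 2 and 0 reads in the other 4 libraries, where a count of 0 allows up to 3 reads, or 0.0387 to 0.0543 CPM. These limits cover counting error only.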

How the data were processed

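Reads of 100 nt from stranded, poly-A selected libraries were quantified before deposit; Trimmomatic 0.39, Salmon 1.5.2 and MultiQC 1.9 are named, per the submitters' processing notes. Each library's deposited table holds, per the file headers, the estimated count and the TPM of each of 140789 transcripts with its length and effective length. For the genome build, annotation release and use of strand, the sources used here give nothing. Reads shared by overlapping transcripts were divided by Salmon's estimate.

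Estimated counts and TPM were summed per gene, and the counts were rounded. The filter filterByExpr kept 19129 of 54309 genes, all 10 members among them. Female was compared with male in edgeR 4.0.16 (R 4.3.3) with TMM scaling and the robust quasi-likelihood test, without covariates, and p-values were adjusted by Benjamini-Hochberg over all genes tested. Fold changes are female minus male. Shares were compared by exact permutation. Alternatives were other scalings, filters and pseudocounts, an effective-length offset, DESeq2 1.42.0, limma 3.58.1, a replicate block, and libraries left out. Levels from protein-coding transcripts alone were added after the data were seen.

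The members, the lists and the naming rule were chosen with earlier results of these data known. The rule named all members; of 48 other pathway genes, the most abundant per role and the 5 of smallest p; the most abundant gene of each of 14 marker lists, some of which are not reported here; and for each member the 2 genes of nearest pattern. Replicates came from separate pools of 2 animals.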

Additional observations from a re-analysis of the deposited data

How the results depend on the processing

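The 21 genes past the threshold over all genes became 191 without a low-count filter, 871 with DESeq2, 10 with limma on log2(TPM + 1) and 3 with the replicate block, and between 4 (without male 2) and 205 (without female 3) when single libraries were left out. Of the Notch pathway genes, members included, DESeq2 called 2, Hes1 (log2 fold change -0.48) and Adam10, and no other alternative called any. Of 180 repeats of the members' fold changes, 166 kept their direction and their side of the threshold and 13 took the opposite sign. Notch1 was at 0.023 on log2(TPM + 1), 0.024 on log2(TPM + 0.1) and 0.021 with the effective-length offset. Notch3 was at -0.11, -0.13 and -0.14 in these fits, at -0.15 without female 2 and male 1, and between -0.11 and 0.16 with single libraries left out. Notch2 and Jag2 were at -0.069 and -0.15 without female 2 and male 1, and with single libraries left out they ran from -0.011 to 0.17 and from -0.093 to 0.25. Hey1 ran from -0.20 to 0.20 with single libraries left out. None of these fold changes passed the threshold, and the cause of the changes of sign was not tested. Hes1, Dll1, Dll4, Notch4 and Jag1 kept their sign in all 18 alternatives. Same-numbered female and male libraries did not deviate together (correlations of -0.10, -0.19 and 0.01 for numbers 1 to 3). Of the 6 libraries male 3 alone correlated best with its own number. From 3 libraries per sex these correlations are a description and cannot settle whether the numbers pair the libraries. With the replicate block Hes1 was at -0.48 with an edgeR adjusted p of 0.168. The members had at least 251 reads in every library, and the 95% interval was widest for Dll4, -0.07 to 1.73.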
